A study of Mus musculus with 6 samples.

Results

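The genes described here were chosen by name from general knowledge of microglia and not by a threshold on their values. Earlier results of these data were known when the choice was made. The set holds 32 genes that mark microglia. Of these, 31 were measured by a probeset that the platform annotation assigns to a single gene, with 1 such probeset each, and all 31 had a mean signal of at least 6 on the log2 scale, the level below which probesets were left out. They stand among 16663 genes with 18239 tested probesets. The other gene, Gpr34, was not analysed here.

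The arrays compared the hypothalamus of female C57Bl/6J mice in 2 groups at 21 weeks of age. In the CGP group, the mothers had been given the NMDA receptor antagonist CGP 39551 by mouth at 5 mg/Kg, throughout pregnancy and until the pups were weaned. The control group (CON) held females of matched age, and the labels do not say what their mothers were given. RNA of 18 mice was pooled in each group, and each group has 3 arrays, numbered as replicates 1 to 3. The labels do not state that separate pools were made for them. The p-values therefore rest on how much the arrays of 1 group vary, possibly for technical reasons alone, and variation from mouse to mouse cannot be seen. A pool of hypothalamus holds many cell types, and fewer microglia and less RNA per microglial cell cannot be told apart in it.

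Microglia are the resident macrophages of the brain. They depend on signals through the CSF1 receptor to survive, use purine receptors to sense nucleotides released by other cells, and take part in the removal of synapses, where the complement protein C1q can tag the material to be taken up. In the resting state they carry a set of genes that other brain cells and most blood cells lack, among them P2ry12, Tmem119 and Siglech, together with genes of the whole myeloid lineage such as Itgam, Tyrobp and Spi1.

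The 6 arrays were alike in overall signal, with medians between 8.19 and 8.21 and correlations of 0.996 to 0.998 between groups. In a principal component analysis, the first component held 35.0% of the variance. Its score for CGP replicate 1 (-0.90) was nearest to that for CON replicate 3 (-0.74). The next component (21.7%) set these arrays at its opposite ends, CGP replicate 1 at 9.67 and CON replicate 3 at -4.78. The tissue was checked, since one passage of the labels names adrenal glands. The hypothalamic peptide genes Oxt and Hcrt had log2 signals of 12.08 to 12.56, while those of the adrenal enzyme genes Cyp11a1 and Cyp11b1 were 5.88 to 6.26, around the level of the filter. The adrenal list genes Star, Cyp21a1 and Pnmt had mean log2 signals of 6.66, 6.39 and 6.29 over the 6 arrays. Not every gene was split in this way. The adrenal list genes Chga and Nr5a1 were at 12.11 to 12.18 and 8.06 to 8.17. The peptide genes Crh and Kiss1 were at 7.01 to 7.40 and 7.83 to 7.99. The defining microglia genes Csf1r, Cx3cr1, Tmem119 and P2ry12 had log2 signals of 7.96 to 9.47 over the 6 arrays.

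No microglia gene passed an adjusted p of 0.05 between CGP and CON in limma. Over all tested probesets, 0.28% passed, 0.154% as higher in CGP and 0.126% as lower, so that 0 of 31 is near the background. At an unadjusted p under 0.05, 0 members were higher and 6 were lower in CGP, against 5.25% and 5.83% of all tested probesets. The differences were small, between -0.22 for Cd14 and 0.048 for Cx3cr1 on the log2 scale, where a difference of 1 is a doubling of signal. Of the 31 genes, 25 had a lower mean in CGP, and their median difference was -0.052, against -0.0031 over all tested probesets, of which 52.1% had a lower mean in CGP. With each array centred on its median, 23 of the 31 had a lower mean, and with 1 array left out 21 to 26 did. The 52.1% is for the main setting alone. The 31 genes mark the same cell type and were read on the same 6 arrays, so they are not independent observations.

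The 95% intervals set limits on the size of the differences. Those of all 31 members lay within 1.4-fold in either direction, those of 26 within 1.2-fold and those of 7 within 1.1-fold. Each interval is for 1 gene alone and covers the spread between arrays. The interval reaching farthest from 0 was that of Fcrls, with a lower bound of -0.38, a 1.30-fold lower signal in CGP. Over all tested probesets, 99.6% had an interval within 1.4-fold. The SD within a group had a median of 0.052 over the members and of 0.057 over all tested probesets, so the microglia genes were measured about as closely as the rest.

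**Figure D1:**
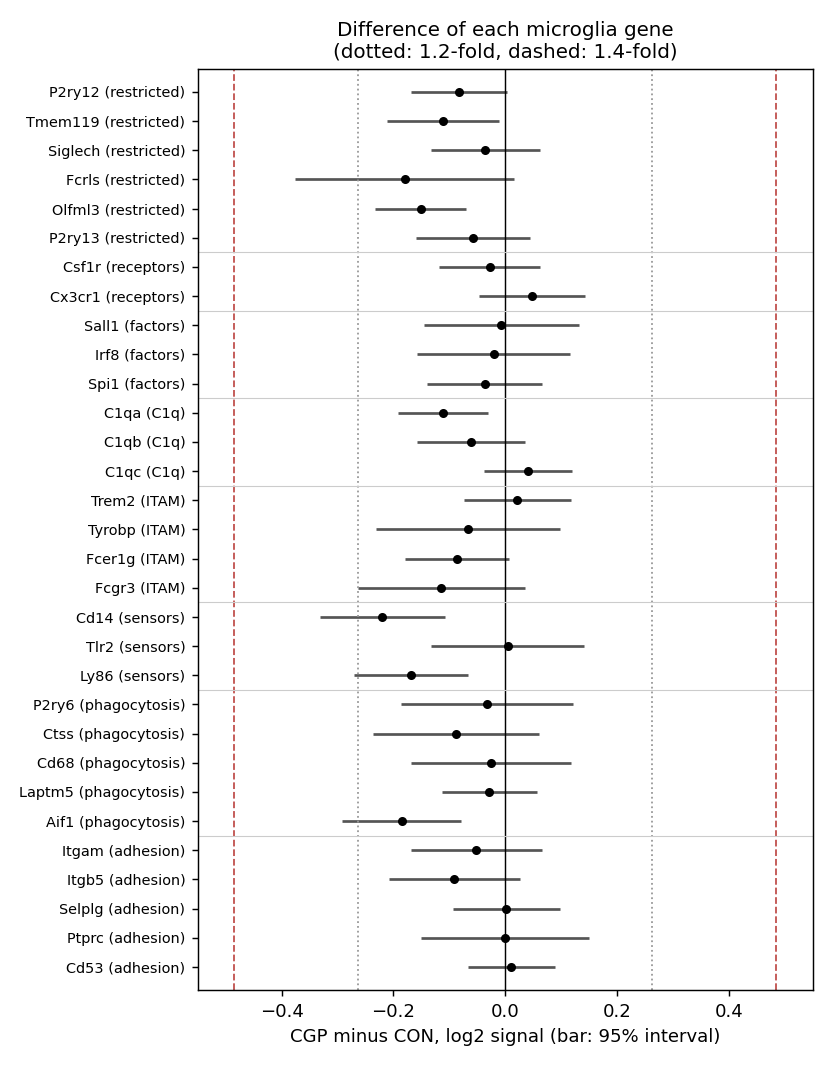
CGP minus CON on the log2 scale (horizontal axis) for the 31 microglia genes (rows, with the role in brackets), with 95% intervals from limma as bars. No bar reaches the dashed lines at 1.4-fold, and 26 of the 31 bars lie between the dotted lines at 1.2-fold.

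The arrays of the groups lay apart for 9 members. Every CGP array was below every CON array for 8 of them, Cd14, Aif1, Ly86, Olfml3, Tmem119, C1qa, Fcer1g and P2ry12, against 9.95% of all tested probesets. Every CGP array was above every CON array for 1, C1qc, against 7.59% of all tested probesets. The 8 genes are spread over several roles and include surface receptors, a secreted glycoprotein, an adaptor and a complement chain.

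The CGP arrays were not alike over the set. CGP replicate 1 had 18 of the 31 genes above the gene's own mean over the 6 arrays, CGP replicate 2 had 5 and CGP replicate 3 had 6, while CON replicates 1, 2 and 3 had 25, 18 and 21. CGP replicate 1 thus had as many as CON replicate 2, although the median deviation of the members on it (0.0028) was below that on each CON array (0.0063 to 0.040). Without CGP replicate 1, the median difference of the members was -0.079 and 14 members had all CGP arrays below CON, as did 19.4% of all tested probesets. Without CON replicate 1 the median difference was -0.027.

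**Figure D2:**
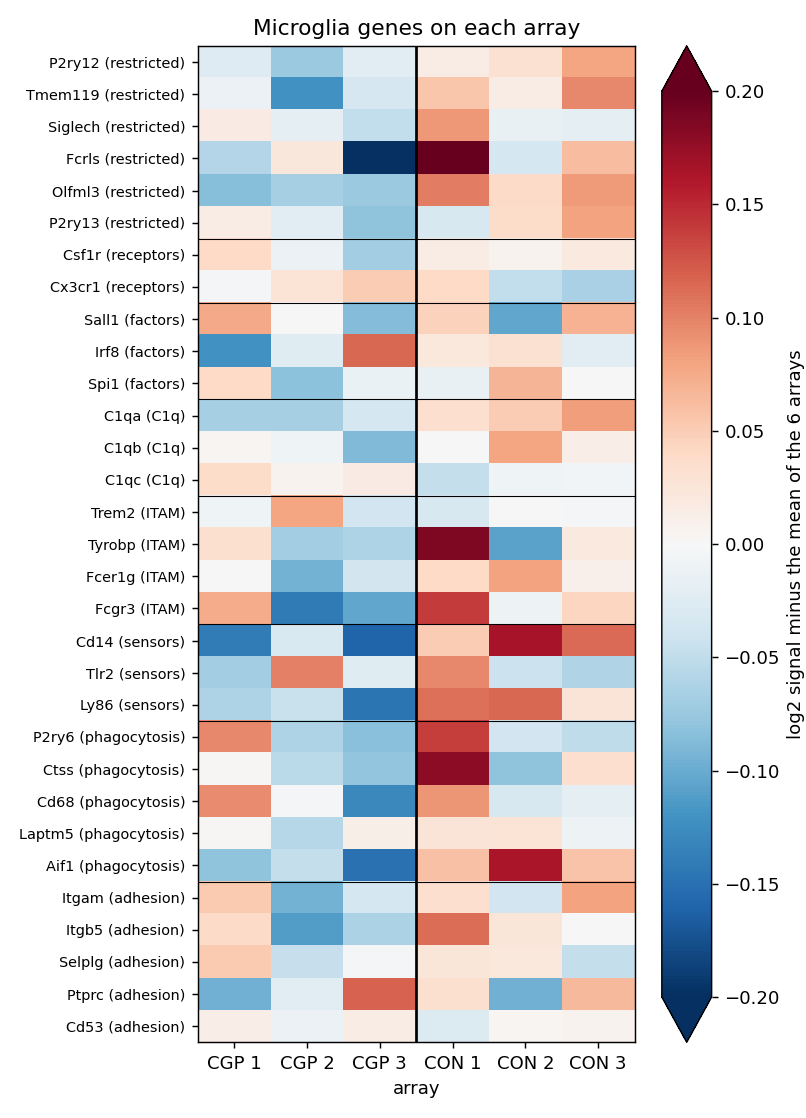
Log2 signal of each of the 31 microglia genes (rows, with the role in brackets) on each array (columns, CGP left and CON right of the heavy line), minus the gene's mean over the 6 arrays, with red above and blue below and colours saturating at 0.20. CGP replicates 2 and 3 have 5 and 6 genes above their mean, and CGP replicate 1 has 18, as many as CON replicate 2.

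The genes grouped here as restricted to microglia all had a lower mean in CGP, by small amounts, and none passed the test. The median difference of the 6 measured genes of this group was -0.097, and 3 of them had arrays apart. The shared sign depends on the grouping, since Cx3cr1 (0.048), Trem2 (0.022) and Sall1 (-0.0071) were placed in other groups. P2ry12, the ADP receptor through which microglial processes move towards damage, was at 8.01, 7.96 and 8.01 in CGP and at 8.05, 8.07 and 8.11 in CON. The groups did not overlap, and the difference was -0.083 (standard error 0.037, adjusted p = 0.460 from limma). Tmem119, a membrane protein gene used to tell microglia from blood macrophages, was at 8.82, 8.71 and 8.80 in CGP and at 8.89, 8.85 and 8.93 in CON. The highest CGP array lay just below the lowest CON array, and the difference was -0.11 (standard error 0.043, adjusted p = 0.417).

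Olfml3 encodes a secreted olfactomedin-like glycoprotein. It was at 9.01, 9.03 and 9.03 in CGP and at 9.20, 9.14 and 9.19 in CON. The CGP arrays lay close together, all below CON, and the difference was -0.15 (standard error 0.035, adjusted p = 0.213 from limma). Fcrls, an Fc receptor-like gene of mouse microglia, was at 7.39, 7.48 and 7.22 in CGP and at 7.70, 7.42 and 7.51 in CON. These groups overlapped, with CGP replicate 3 the lowest of all arrays, and the within-group SD of 0.14 was the highest of the 31 genes. Its difference was -0.18 (adjusted p = 0.493), and it was -0.11 without CGP replicate 3 and -0.10 without CON replicate 1. Siglech, a sialic acid-binding lectin gene, had a difference of -0.035, and the purine receptor gene P2ry13 one of -0.058, both with overlapping arrays.

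Of the receptors that carry growth factor and chemokine signals, neither passed the test. Csf1r, the receptor for CSF1 and IL-34, was at 9.47, 9.41 and 9.36 in CGP and at 9.44, 9.43 and 9.45 in CON. The CON arrays lay inside the range of the CGP arrays, and the 95% interval of the difference ran between -0.12 and 0.063. Cx3cr1, the receptor for the neuronal chemokine fractalkine, was at 9.27, 9.30 and 9.32 in CGP and at 9.31, 9.22 and 9.21 in CON. Its difference of 0.048 was the highest of the members (standard error 0.041, 95% interval -0.047 to 0.14, adjusted p = 0.701 from limma). The genes of their ligands did not pass either. Csf1 differed by -0.022 (adjusted p = 0.880), Il34 by 0.059 (adjusted p = 0.718) and the fractalkine gene Cx3cl1 by 0.11 (adjusted p = 0.426), the last with all CGP arrays above CON.

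The transcription factor genes had differences near 0. Spi1 encodes PU.1, which sets up the myeloid lineage, Irf8 a partner of PU.1, and Sall1 a factor that keeps microglial identity. Spi1 differed by -0.036, Irf8 by -0.020 and Sall1 by -0.0071, with adjusted p of 0.800, 0.927 and 0.979 in that order from limma. Irf8 was at 7.58, 7.67 and 7.81 in CGP and at 7.72, 7.73 and 7.68 in CON. Its CGP arrays spread to both sides of all CON arrays. The sign of Irf8 turned with array weights and that of Sall1 with centred arrays.

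The genes of the 3 chains of C1q, which starts the classical complement pathway, did not all have the same sign. C1qa was at 9.11, 9.11 and 9.14 in CGP and at 9.21, 9.22 and 9.26 in CON. All CGP arrays were below CON, and the difference was -0.11 (standard error 0.035, adjusted p = 0.340 from limma). C1qb was at 10.58, 10.57 and 10.49 in CGP and at 10.58, 10.66 and 10.59 in CON. Its groups overlapped, with a difference of -0.061 (adjusted p = 0.628). C1qc was at 10.15, 10.12 and 10.13 in CGP and at 10.06, 10.10 and 10.10 in CON. All CGP arrays were above CON here, and the difference was 0.041 (standard error 0.034, adjusted p = 0.694).

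The 3 genes are neighbours on chromosome 4, and each array carries all of them, so the change of one relative to another was read within arrays. C1qa minus C1qc was -1.04, -1.01 and -0.99 in CGP and -0.86, -0.88 and -0.85 in CON. This value was lower in CGP by a difference of -0.15, and the groups did not overlap. C1qc minus C1qb was -0.44, -0.45 and -0.37 in CGP and -0.52, -0.56 and -0.49 in CON, a difference of 0.10, again without overlap. These pairs were singled out after their values had been seen and the differences were not tested. In all, 3 of 5 neighbouring pairs did not overlap, and the share over all neighbouring genes was not counted. Each of the 5 pairs holds a member whose own arrays lay apart, so the count is not separate from the single-gene values. Of the remaining pairs, Selplg minus Tmem119 on chromosome 5 was 0.59, 0.60 and 0.56 in CGP and 0.50, 0.53 and 0.38 in CON, also without overlap, while P2ry12 minus P2ry13 on chromosome 3 and Fcer1g minus Fcgr3 on chromosome 1 overlapped.

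**Figure D3:**
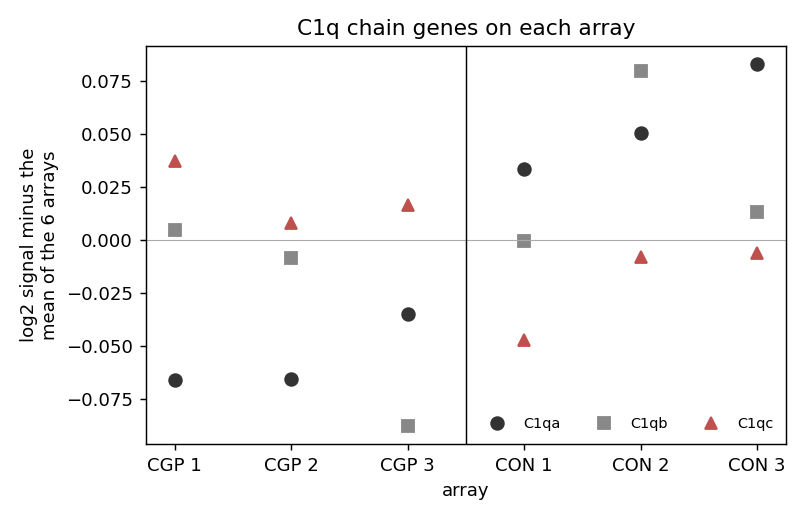
Log2 signal of C1qa (circles), C1qb (squares) and C1qc (triangles) on each array (CGP left and CON right of the line), minus the gene's mean over the 6 arrays. C1qa is below its mean and C1qc above its mean on all 3 CGP arrays, with differences between groups of -0.11 and 0.041.

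The bases before the starts of C1qb and C1qc are shown because these neighbours differed in sign, C1qa having no window. They are from the promoter table of RefSeq (GRCm38.p6), in which 23 of the 32 members had a window. The 250 bases before the start were searched on both strands for GAGGAAGT, a PU.1 type of site, and for GGAA and GAAA with 2 bases of any kind between them, a joint ETS and IRF type of site that PU.1 and IRF8 can share. A single member held either of them. C1qc has GAGGAAGT on the strand opposite to the gene, and capitals mark it. Its match begins 195 bases before the start in the promoter table, not before the end of the printed stretch.
C1qb (GRCm38.p6, chr4:136886201-136886450, minus strand): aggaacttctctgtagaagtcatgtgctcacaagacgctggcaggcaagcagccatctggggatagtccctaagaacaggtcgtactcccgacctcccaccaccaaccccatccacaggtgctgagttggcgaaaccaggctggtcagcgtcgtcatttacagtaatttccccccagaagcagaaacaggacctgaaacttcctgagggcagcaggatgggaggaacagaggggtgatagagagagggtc
C1qc (GRCm38.p6, chr4:136892937-136893164, minus strand): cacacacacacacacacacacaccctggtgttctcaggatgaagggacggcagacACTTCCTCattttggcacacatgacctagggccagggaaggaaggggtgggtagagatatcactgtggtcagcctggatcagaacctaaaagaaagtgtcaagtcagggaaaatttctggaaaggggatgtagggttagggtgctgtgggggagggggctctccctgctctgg
Bases inside the gene model were left off at the end of the window, 22 for C1qc and 0 for C1qb. Over the 27025 genes of the table, 2.44% held GAGGAAGT and 2.38% the joint type in this window, against 1 of 23 and 0 of 23 members. A match is a description of the letters, and the absence of one says only that these letters are not in the window.

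The receptors and adaptors that signal through ITAM motifs had small differences of both signs. Fcer1g, the common chain of Fc receptors, was at 9.54, 9.45 and 9.50 in CGP and at 9.58, 9.62 and 9.55 in CON. The groups lay apart by a narrow margin, and the difference was -0.087 (standard error 0.040, adjusted p = 0.482 from limma). Tyrobp, which encodes DAP12, the adaptor of TREM2, was at 9.42, 9.32 and 9.33 in CGP and at 9.58, 9.28 and 9.41 in CON. The CON arrays spanned the CGP arrays, and the difference was -0.066 (adjusted p = 0.771). Trem2, a receptor for lipids and lipoproteins, was at 8.79, 8.88 and 8.76 in CGP and at 8.77, 8.80 and 8.80 in CON. Its difference was 0.022 (adjusted p = 0.885), with overlapping arrays. Fcgr3, a low-affinity IgG receptor gene, differed by -0.11 with overlapping arrays (adjusted p = 0.558), or -0.18, -0.073 and -0.074 without CGP replicate 1, CGP replicate 2 and CON replicate 1, in that order. Its sequence is similar to those of related Fc receptors, so its probeset may read them too.

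The innate sensors included 2 of the 4 lowest differences of the set. Cd14, the co-receptor that hands lipopolysaccharide to TLR4, had the lowest, at 6.57, 6.68 and 6.55 in CGP and at 6.76, 6.88 and 6.82 in CON. The groups lay apart, with a difference of -0.22, a 1.16-fold lower signal in CGP (standard error 0.049, 95% interval -0.33 to -0.11, adjusted p = 0.183 from limma). Ly86, which encodes MD-1, the partner of the TLR4-like receptor CD180, was at 9.60, 9.61 and 9.51 in CGP and at 9.77, 9.77 and 9.69 in CON. All CGP arrays were below CON, and the difference was -0.17 (standard error 0.044, adjusted p = 0.264). Ly86 was the only member to pass in any of the 15 alternatives, with an adjusted p of 0.0476 under a trended and robust variance prior, where 0.746% of all tested probesets passed as lower. Its adjusted p ranged up to 0.533 over the alternatives. Tlr2, the receptor for bacterial lipoproteins, was at 7.47, 7.64 and 7.51 in CGP and at 7.63, 7.49 and 7.48 in CON. These arrays overlapped, with a difference of 0.0042.

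All 5 genes of phagocytosis, lysosomes and purine-driven uptake had a lower mean in CGP, none passed, and 1 had arrays apart. This was Aif1, which encodes the actin-binding protein IBA1 used to stain microglia, at 6.60, 6.64 and 6.53 in CGP and at 6.74, 6.85 and 6.74 in CON. Its difference was -0.19 (standard error 0.046, 95% interval -0.29 to -0.080, adjusted p = 0.238 from limma). Ctss, the cathepsin S gene, was at 9.05, 8.99 and 8.96 in CGP and at 9.22, 8.96 and 9.08 in CON. CON replicate 1 was the highest array, the groups overlapped, and the difference was -0.088 (adjusted p = 0.646). Leaving out CON replicate 1 gave -0.020, and leaving out CON replicate 2 gave -0.15. Cd68, a lysosomal membrane protein gene, differed by -0.026, Laptm5, another lysosomal membrane protein gene, by -0.028 and P2ry6, the UDP receptor that triggers uptake, by -0.033. Cd14, Aif1 and Ptprc were the 3 members with a mean log2 signal under 7, close to the filter, where array signals are compressed.

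The adhesion and general leukocyte genes had overlapping arrays throughout. Ptprc, which encodes CD45, was at 6.46, 6.53 and 6.67 in CGP and at 6.59, 6.46 and 6.62 in CON. Its difference was -0.00049. Cd53, a leukocyte tetraspanin gene, was at 7.97, 7.95 and 7.97 in CGP and at 7.93, 7.96 and 7.96 in CON. It had the narrowest 95% interval of the set, -0.067 to 0.089. Selplg, the P-selectin ligand gene, differed by 0.0023, Itgam, the CD11b chain of complement receptor 3, by -0.052 and Itgb5, an integrin chain gene that other brain cells also express, by -0.091 (adjusted p = 0.557 from limma).

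**Figure D4:**
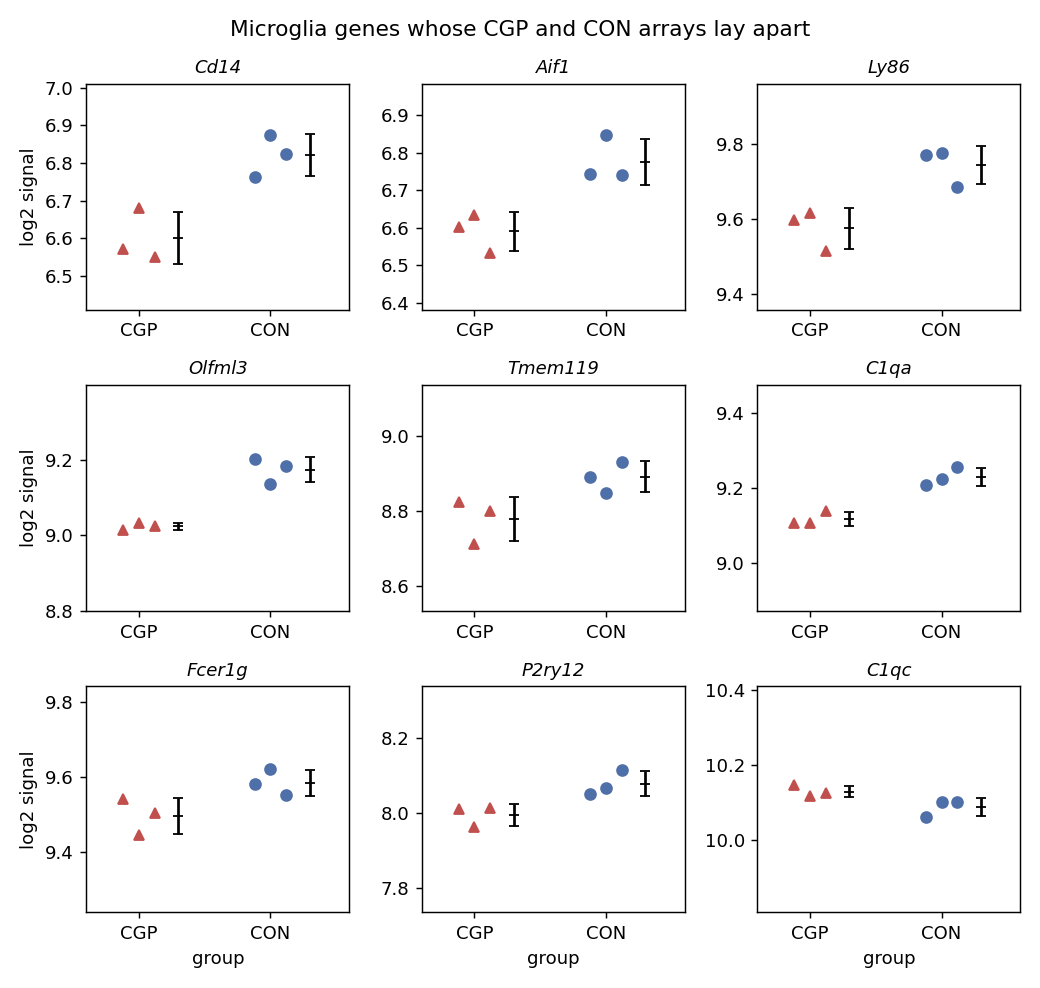
Log2 signal (vertical axis) of the 9 microglia genes whose arrays lay apart, with the CGP arrays as triangles on the left and the CON arrays as circles on the right, and the mean and SD of each group of 3 arrays beside the points, all axes spanning the same range. C1qc is the 1 gene with CGP above CON, and Cd14 has the lowest difference, -0.22.

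Further genes of the cell type and its pathways were set beside the members, in lists written from their known roles. These lists were written with earlier results of these data known. Of 20 other microglia genes none passed, 13 had a lower and 7 a higher mean in CGP, and the median difference was -0.029. Ltc4s, a leukotriene synthase gene, had the largest difference of this list, 0.17 (standard error 0.044, adjusted p = 0.250 from limma), with all CGP arrays above CON. The list holds genes such as Sparc and Cst3 that other brain cells also express. Of 22 genes of shared myeloid signalling none passed, with a median difference of -0.038, the largest being that of Lcp1, an actin-bundling protein gene (-0.16, adjusted p = 0.359). Of 15 ligands and partners of microglia receptors none passed, with a median of -0.022, the largest difference being that of Ly96, which encodes the TLR4 partner MD-2 (-0.15, adjusted p = 0.575). Leaving out CON replicate 2 gave -0.051 for Ly96, smaller in size than the 0.071 of Cx3cl1.

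Genes that increase in activated microglia included no call among 25, with a median difference of -0.023, 14 lower and 11 higher in CGP. The gene with the largest difference was Ccl3, a chemokine gene, at 8.61, 8.43 and 8.38 in CGP and at 8.13, 8.12 and 8.02 in CON. All CGP arrays were above CON, and the difference was 0.38 (standard error 0.063, adjusted p = 0.0663 from limma). Ccl3 passed in 4 of 15 alternatives, where its adjusted p ranged between 0.00233 and 0.308. Of the 25 genes, 4 had all CGP arrays below CON and 2 all above, against 9.95% and 7.59% of all tested probesets. The lowest difference of the list was that of Lyz2, -0.29 (adjusted p = 0.124 from limma), with all CGP arrays below CON. In the complement pathway outside C1q none of 16 genes passed, with a median of -0.014. Serping1, the inhibitor of the proteases that C1q carries, was at 9.01, 8.88 and 8.90 in CGP and at 9.26, 9.22 and 9.13 in CON. All CGP arrays were below CON, and the difference was -0.27 (standard error 0.051, adjusted p = 0.111), which passed in 1 of 15 alternatives.

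Markers of cells at the borders of the tissue had larger median differences than the microglia genes. Their lists were also chosen with earlier results of these data known, so the contrast is a description and was not tested. Of 17 genes of meningeal fibroblasts, 6 fell in CGP, 0 rose and 11 did not pass. Those that fell were Prg4 (-0.57), Ogn (-0.44), Fmod (-0.36), Slc6a20a (-0.32), Aldh1a2 (-0.27) and Igf2 (-0.25), with adjusted p between 0.00720 and 0.0482 from limma, and the median difference of the list was -0.24. With any 1 of the 6 arrays left out, between 0 and 2 genes of the list passed as lower. The summed linear signal of the list was 8186 to 8499 in CGP and 9765 to 10063 in CON. Of 9 choroid plexus genes, 2 rose, the transthyretin gene Ttr (0.84, adjusted p = 2.90e-04 from limma, passing in 14 of 15 alternatives) and the bicarbonate transporter gene Slc4a5 (0.40, adjusted p = 0.0249, passing in 5 of 14), and all 9 had a higher mean in CGP.

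Border macrophages, the relatives of microglia in meninges and around vessels, share many of the genes described here. Of 16 of their genes 1 fell, Colec12, a scavenger receptor gene that stromal cells also express (-0.26, adjusted p = 0.0441 from limma, passing in 5 of 15 alternatives), and 0 rose. The median difference of the list was -0.083, and its summed linear signal was 3147 to 3272 in CGP and 3426 to 3459 in CON. The summed linear signal of the 31 microglia genes was 14923 to 15475 in CGP and 15591 to 15964 in CON. It did not overlap between the groups, and neither did that of 9 of the 16 other lists, the oligodendrocyte and endothelial lists among them.

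The lists of other brain cells had median differences of similar size to the microglia genes. The median was -0.067 for 13 genes of the oligodendrocyte lineage, -0.048 for 12 astrocyte genes and -0.028 for 12 neuron genes, with no call in these lists. For 13 endothelial and mural genes it was -0.073, with 1 call, the smooth muscle actin gene Acta2 (-0.35, adjusted p = 0.0249 from limma, passing in 6 of 15 alternatives). Of 18 blood leukocyte genes 7 could be tested and of 7 red blood cell genes 2, with medians of -0.026 and -0.058 and no call. The hypothalamic peptide genes had a median of -0.018 and the adrenal genes one of -0.0071. The part of other cells in the differences of the microglia genes was not tested.

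**Figure D5:**
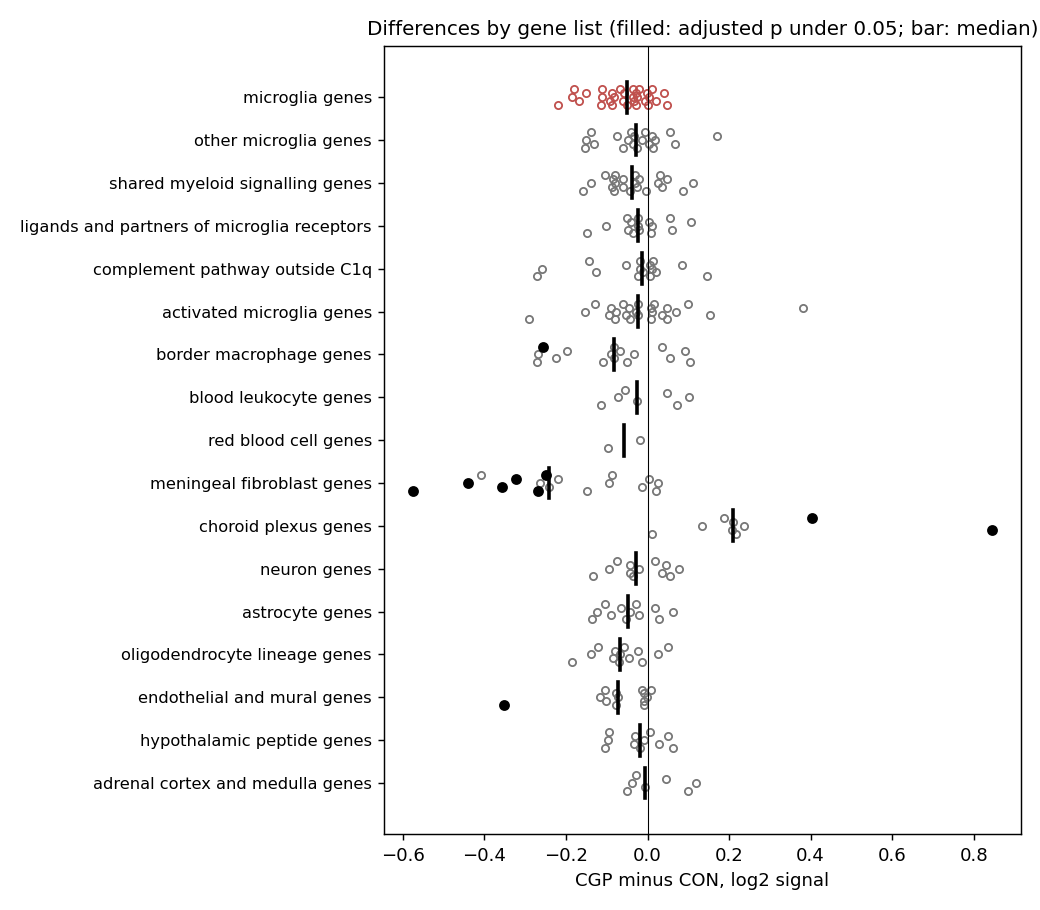
CGP minus CON on the log2 scale (horizontal axis) for each tested gene of the microglia set (top row) and of the other lists (rows), where each circle is a gene, filled circles have an adjusted p under 0.05 in limma and the bar is the median of the list. The microglia genes have a median of -0.052 and no filled circle, the meningeal fibroblast genes a median of -0.24 with 6, and the choroid plexus genes a median of 0.21 with 2.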

How the data were processed

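Hypothalamic RNA of 2 groups was measured on 3 arrays each, and the deposited values are log2 signals, made with RMA in Partek per the submitters' processing notes, which name no version. In all, the table held 28471 probesets, of which 18690 carry 1 gene in the platform annotation, 1163 several and 8618 none. Probesets with 1 gene and a mean of at least 6 were kept (18239), and per gene the probeset with the highest mean was used. RMA compresses differences near background. Differences (CGP minus CON) were tested with limma 3.58.1 in R 4.3.3 (lmFit and eBayes, Benjamini-Hochberg adjustment over the 18239). The fit was tested on simulated data with 50 probesets changed at each size. It called 0 of them at 1.1-fold, 27 at 1.2-fold, 43 at 1.4-fold and 50 at 2-fold. Changes of the size seen in most members would thus seldom be called. The members, lists and tests were chosen with earlier results of these data known. Values per array are given for members with arrays apart, the C1q chains, the extreme differences and at least 1 gene of each role; from the other lists the called genes are named, or the gene with the largest difference, beside Csf1, Il34 and Cx3cl1 as ligands. Replicate numbers were not taken as pairs in the main test. The alternatives were other filters, probesets, variance priors, weights, scaling, a replicate block and leaving out each array.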

Additional observations from a re-analysis of the deposited data

How the results depend on the processing

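The count of tested probesets passing, 28 higher and 23 lower in CGP, depended on the processing. It was 44 and 37 with a filter at 7, 3 and 2 over all probesets, 4 and 2 with an unmoderated test, 113 and 136 with a trended and robust prior, 39 and 38 with array weights, 2 and 4 with the replicate number as a block, and 37 and 18 with centred arrays, where 67.3% of calls were higher against 54.9%. With 1 array left out it was 2 to 5 higher and 3 to 8 lower. No member passed in these settings except Ly86 (-0.17), the 1 member lower with the trended prior. The members' median difference ranged between -0.079 and -0.027 with 1 array left out, and members with arrays apart numbered 9 to 14 below and 1 to 2 above, against 12.6% to 19.4% and 11% to 14.5% of all tested probesets. All 9 members with arrays apart moved by at most 1.5 times with 1 array left out, while 11 others kept their sign and moved by more. These 9 were picked because their groups lay apart on the same arrays, so the contrast is not separate support. Deviations of same-numbered arrays correlated at 0.078, -0.18 and 0.11, and the numbers were not taken as pairs. With 3 arrays a group, these values cannot show that same-numbered arrays shared no step. The replicate block cannot change the differences themselves, since both groups hold every replicate number, so the median difference of the members stayed at -0.052. With the block, 0 members passed. Signs turned for Irf8 with array weights (0.0050), for Sall1 (0.0051) and Ptprc (0.012) with centred arrays, and with 1 array left out for members ranging Csf1r -0.054 to 0.00013, Sall1 -0.061 to 0.034, Irf8 -0.083 to 0.036, Trem2 -0.012 to 0.046, Tyrobp -0.14 to 0.010, Tlr2 -0.045 to 0.054, P2ry6 -0.089 to 0.028, Cd68 -0.079 to 0.032, Selplg -0.023 to 0.026, Ptprc -0.059 to 0.048 and Cd53 -0.00010 to 0.019, and for Cd79b, -0.22 to 0.020. None of these passed. The cause was not tested. The pools and 3 arrays a group limit the precision.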
